A study of Mus musculus with 12 samples.

Results

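The type 17 cytokines and receptors described here are 7 mouse genes: the cytokines Il17a, Il17f, Il21, Il22 and Il24, and the receptor chains Il23r and Il1r1. They were taken by name, each from a probe set annotated to exactly 1 gene symbol, and are 7 of the 22180 genes so measured. Each had 1 probe set. The 12 Affymetrix arrays of mouse CD8+ T cells fall into 4 groups of 3 arrays: Tc17 STAT3-/-, Tc17 WT, Tc1 STAT3-/- and Tc1 WT. STAT3-/- cells came from mice with floxed Stat3 alleles and a Cd4-driven Cre recombinase (Cd4cre+ STAT3fl/fl), which acts in developing T cells and so deletes in the CD4 and the CD8 lineage, and WT cells carried intact Stat3. In all groups naive CD8+ T cells from spleen were used, the genotypes were mixed 1:1 before culture, and activation was by anti-CD3 (1 µg/ml) and anti-CD28 (3 µg/ml). Culture ran for 4 days in all. Tc17 cells had 3 days of IL-6 and TGF-beta and Tc1 cells 3 days of IL-12, followed in both by 1 day of IL-2. The genotypes were separated at the end by sorting on allelic markers. Each group had biological arrays 1 and 2 and a technical array numbered 2. The technical array was averaged with biological array 2, giving 2 samples per group and 8 in all.

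IL-17A and IL-17F are related cytokines that act on epithelial, stromal and endothelial cells and draw neutrophils to inflamed tissue, and IL-22 acts on epithelial barriers. In T cells, IL-6, IL-21 and IL-23 signal mainly through STAT3, which together with TGF-beta signals turns on the type 17 genes. The IL-23 receptor pairs the IL-23R chain with the IL-12Rb1 chain and sustains type 17 cells, and IL-1 acting through IL-1R1 adds to it. CD8 T cells primed with IL-6 and TGF-beta in place of IL-12 make IL-17 and carry little of the cytotoxic programme of Tc1 cells.

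The sequence just upstream of the start was looked up for the members in the RefSeq promoter table (GRCm38.p6), which held 7 start windows for 6 of the 7 genes, Il24 being the other member. The 250 bases before the start of Il17a, Il17f and Il21 are printed because these cytokine genes fell together in Tc17 STAT3-/- cells. Capitals mark matches, on either strand, to 2 motifs. The first is a core element bound by nuclear receptors, AGGTCA. The second is the site bound by AP-1 factors, which reads TGANTCA on both strands. The sequences run 5′ to 3′ along the gene.
Il17a (chr1:20730655-20730904, plus strand): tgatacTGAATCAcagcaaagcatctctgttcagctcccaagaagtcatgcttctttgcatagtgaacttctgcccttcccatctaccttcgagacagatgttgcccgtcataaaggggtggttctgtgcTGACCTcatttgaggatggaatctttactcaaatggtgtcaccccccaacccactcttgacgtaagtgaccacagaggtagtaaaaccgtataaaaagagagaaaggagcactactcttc
Il17f (chr1:20784271-20784520, minus strand): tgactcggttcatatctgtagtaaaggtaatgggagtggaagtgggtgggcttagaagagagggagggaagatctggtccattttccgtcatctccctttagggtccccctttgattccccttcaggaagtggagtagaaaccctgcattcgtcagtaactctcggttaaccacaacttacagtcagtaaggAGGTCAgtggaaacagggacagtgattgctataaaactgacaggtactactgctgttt
Il21 (chr3:37232637-37232886, minus strand): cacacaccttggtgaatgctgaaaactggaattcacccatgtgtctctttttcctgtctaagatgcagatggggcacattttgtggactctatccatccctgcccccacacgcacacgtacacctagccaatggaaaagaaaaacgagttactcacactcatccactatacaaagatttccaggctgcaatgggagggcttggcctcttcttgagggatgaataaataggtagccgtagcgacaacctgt
Il17a held 1 nuclear receptor element, 120 bases before its start, and 1 AP-1 site, 244 bases before it. Il17f held 1 nuclear receptor element, 58 bases before its start, and Il21 held neither motif. Il23r held 2 nuclear receptor elements, 229 and 66 bases before its start, and the windows of Il22 and Il1r1 held none. The STAT palindrome TTCNNNGAA was not found in any of the 7 windows. Among all 32851 promoters of the table, the upstream 250 bases held the nuclear receptor element in 14%, the AP-1 site in 6.75% and the STAT palindrome in 7.02%. These matches describe the letters of the windows alone.

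The targeted gene followed the labels. Stat3 lay at 7.59 to 7.93 (log2) on Tc17 STAT3-/- arrays, 10.38 to 10.72 on Tc17 WT arrays, 6.99 to 7.67 on Tc1 STAT3-/- arrays and 9.77 to 10.13 on Tc1 WT arrays. Its signal was thus lower in STAT3-/- cells but stayed above background on every array. The sum of 6 measured CD8 T cell markers was 62.5 to 64.3 in all groups. Within it, Tc17 STAT3-/- less Tc17 WT, Cd8a differed by 0.30 (limma adjusted p 0.0446, called in 11 of 25 other settings) and Cd5 by -0.33 (limma adjusted p 0.0371, called in 13 of 25). Among markers of other cells, Blk, Ncr1, Klrb1c, Ms4a1, Cd79a, Cd14, Lyz2, Itgam, Adgre1 and S100a8 were near background on all 12 arrays. Csf1r and Zbtb16 were near background on part of the arrays. Other markers of these lists were above background on every array. Ighm read 9.03 to 11.08, Kit 8.15 to 9.63, Cd68 6.74 to 7.99, Cd79b 6.44 to 7.62 and Sox13 4.99 to 5.55. The CD4 T cell markers Cd4 (4.57 to 5.83) and Zbtb7b (6.04 to 6.39) were also above background on every array. A value is called near background here when it was at or below the 95th percentile of the 1091 olfactory receptor probe sets on the same array, which were taken as genes not used by T cells. The technical array of Tc17 WT stood apart, with a median correlation of 0.933 with the other arrays, against at least 0.961 for the rest.

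Of the 7 members, Il17a, Il17f, Il21 and Il24 passed the filter on dim genes (at least 1 group mean of 5 or more), as did 9862 of 22180 genes. All 4 passed it through the Tc17 WT group alone, which was the high one, so their count carries no weight by itself. All 4 fell in Tc17 STAT3-/- cells relative to Tc17 WT cells by limma at an adjusted p under 0.05, where 6.83% of all tested genes were called lower. When all 22180 genes entered the fit, 6 of the 7 members were called lower, Il22 being the exception, beside 2.66% of all genes. The call on Il1r1, near background on every array, did not outlast the removal of the technical arrays.

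**Figure D1:**
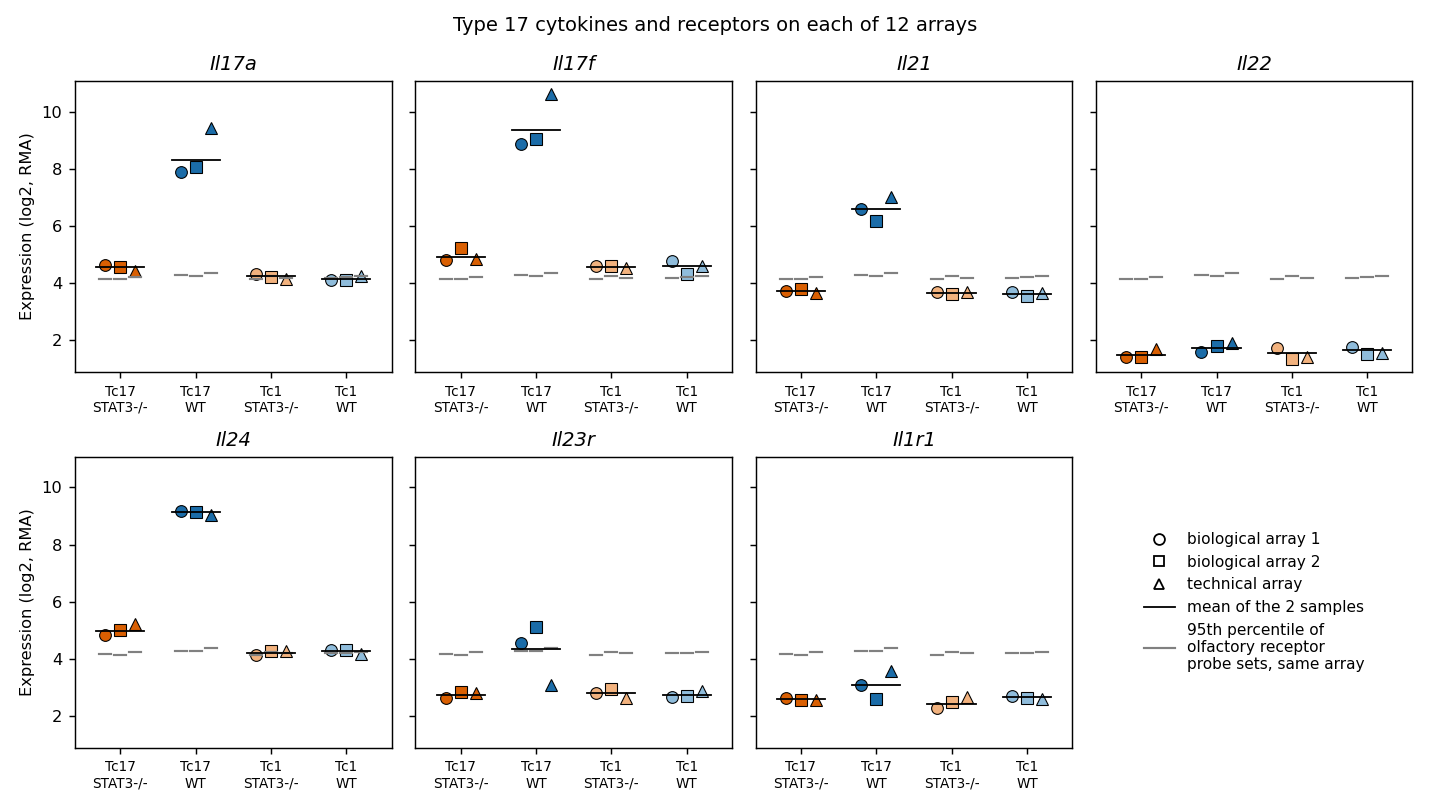
Expression (log2, RMA) of the 7 genes on each of 12 arrays, by group. Circles, squares and triangles are biological array 1, biological array 2 and the technical array, black bars are means of the 2 samples, and grey ticks mark the 95th percentile of olfactory receptor probe sets on the same array. Il17a, Il17f, Il21 and Il24 stand high on the 3 Tc17 WT arrays only, Il23r on the 2 biological Tc17 WT arrays, and Il22 lies far under the grey ticks throughout.

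Il17a, which encodes IL-17A, was well above background in Tc17 WT cells and low in the other 3 groups. Its log2 value was 4.63, 4.55 and 4.42 on Tc17 STAT3-/- arrays (biological 1, biological 2, technical), against 7.90, 8.07 and 9.44 on Tc17 WT arrays. On Tc1 STAT3-/- arrays it was 4.33, 4.23 and 4.15, against 4.13, 4.11 and 4.27 on Tc1 WT arrays. The Tc17 groups did not overlap, and the technical array was the highest Tc17 WT array. Il17a was near background on 4 of 12 arrays, all of them Tc1. It averaged 4.56 ± 0.10 in Tc17 STAT3-/- and 8.33 ± 0.60 in Tc17 WT cells (SD, n = 2 samples each), 13.7-fold lower without STAT3. The difference was -3.77 ± 0.22 (SE) with a 95% confidence interval of -4.28 to -3.26 and an adjusted p of 1.17e-05 (limma). Without the Tc17 WT technical array it was -3.43. In these bulk samples fewer cells making a transcript and less transcript per cell cannot be told apart, here and for the genes that follow.

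Il17f lies next to Il17a in the genome and encodes a cytokine that pairs with IL-17A or with itself. The Tc17 STAT3-/- arrays read 4.80, 5.24 and 4.85 (log2), against 8.88, 9.05 and 10.61 on Tc17 WT arrays. The Tc1 STAT3-/- arrays read 4.59, 4.61 and 4.54, against 4.77, 4.33 and 4.59 on Tc1 WT arrays. It was above the background mark on all 12 arrays, and again only the Tc17 WT arrays were high, the technical one most. The Tc17 genotype difference was -4.43 ± 0.26 (SE; 95% confidence interval -5.02 to -3.84, limma adjusted p 1.09e-05), 21.6-fold lower without STAT3. Without the Tc17 WT technical array the Il17f difference was -4.04.

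Il24 encodes an IL-10 family cytokine that signals through receptors shared with IL-20. Its log2 value was 4.82, 5.02 and 5.21 on Tc17 STAT3-/- arrays, against 9.18, 9.14 and 9.03 on Tc17 WT arrays. On Tc1 STAT3-/- arrays it was 4.15, 4.26 and 4.27, against 4.31, 4.32 and 4.16 on Tc1 WT arrays. Unlike Il17a and Il17f, Il24 had its lowest Tc17 WT value on the technical array, and the 3 values lay close together. It was 4.97 ± 0.20 in Tc17 STAT3-/- and 9.13 ± 0.07 in Tc17 WT cells (SD, n = 2 samples each). The difference was -4.17 ± 0.11 (SE; 95% confidence interval -4.42 to -3.91, limma adjusted p 4.6e-07), 17.9-fold lower without STAT3.

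Il21 encodes a cytokine of the common gamma chain family that activated T cells make and that itself signals through STAT3. Expression (log2) was 3.72, 3.79 and 3.66 on Tc17 STAT3-/- arrays, against 6.61, 6.18 and 7.02 on Tc17 WT arrays. It was 3.69, 3.64 and 3.69 on Tc1 STAT3-/- arrays, against 3.68, 3.55 and 3.64 on Tc1 WT arrays. Il21 was near background on all 9 arrays outside Tc17 WT. The difference was -2.88 ± 0.08 (SE; 95% confidence interval -3.07 to -2.69, limma adjusted p 4.6e-07). That error is smaller than the spread of the arrays: the second Tc17 WT sample averages the lowest and the highest array and so falls almost on the first. Without the technical arrays the difference was -2.63 (limma adjusted p 1.81e-06).

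Il22 was not detected above background in any group. The Tc17 STAT3-/- arrays read 1.40, 1.40 and 1.70 (log2), against 1.60, 1.80 and 1.93 on Tc17 WT arrays. The Tc1 STAT3-/- arrays read 1.72, 1.36 and 1.41, against 1.78, 1.52 and 1.55 on Tc1 WT arrays. At most 3.16% of the probe sets on an array lay below it. The groups overlapped, and with all genes in the fit the Tc17 genotype difference was -0.26 ± 0.15 (SE; 95% confidence interval -0.59 to 0.08, limma adjusted p 0.359). Iltifb, a neighbouring near-identical copy of Il22 in the mouse whose transcripts a probe set may not tell apart, lay at 1.69 to 2.30 on the 12 arrays.

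Il23r, the chain that gives the IL-23 receptor its specificity, was above background on 2 arrays, those of the biological Tc17 WT samples. Its log2 value was 2.65, 2.84 and 2.82 on Tc17 STAT3-/- arrays, against 4.56, 5.12 and 3.09 on Tc17 WT arrays. On Tc1 STAT3-/- arrays it was 2.81, 2.96 and 2.63, against 2.66, 2.70 and 2.89 on Tc1 WT arrays. The Tc17 groups did not overlap, but the technical Tc17 WT array lay close to the STAT3-/- arrays, while the same array was the highest for Il17a, Il17f and Il21. Il23r did not pass the filter, and with all genes in the fit its Tc17 genotype difference was -1.59 ± 0.15 (SE; 95% confidence interval -1.92 to -1.26, limma adjusted p 0.000173). Without the technical arrays it was -2.09, and with them as samples of their own -1.49 (limma adjusted p 0.0108).

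Il1r1, the signalling receptor for IL-1, was near background on all 12 arrays. Its log2 value was 2.64, 2.57 and 2.57 on Tc17 STAT3-/- arrays, against 3.10, 2.59 and 3.59 on Tc17 WT arrays. On Tc1 STAT3-/- arrays it was 2.28, 2.48 and 2.66, against 2.71, 2.62 and 2.59 on Tc1 WT arrays. The Tc17 groups overlapped, since the biological Tc17 WT array 2 lay within the STAT3-/- range. With all genes in the fit the Tc17 genotype difference was -0.49 ± 0.12 (SE, limma adjusted p 0.0322). This call rests on the Tc17 WT technical array, whose value averaged with biological array 2 fell almost on that of biological array 1. Without that array the difference was -0.24 (limma adjusted p 0.477), and without Tc17 STAT3-/- replicate 1 the adjusted p was 0.142.

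In Tc1 cells loss of STAT3 was followed by no detected change in any member. None of the 4 tested members was called, and none had an unadjusted p under 0.05 (limma adjusted p 0.998 for each), beside 0.0608% of all tested genes called in either direction. With all genes in the fit none of the 7 was called or had an unadjusted p under 0.05, beside 0.0225% of all genes. The differences and 95% confidence intervals were 0.10 (-0.41 to 0.61) for Il17a and -0.03 (-0.61 to 0.56) for Il17f. They were 0.04 (-0.15 to 0.23) for Il21 and -0.07 (-0.32 to 0.19) for Il24. All 4 were already low or near background in Tc1 WT cells, where a fall can hardly be measured.

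The genotype differences in Tc17 and in Tc1 were compared directly. The difference between them was -3.87 ± 0.32 for Il17a and -4.40 ± 0.36 for Il17f (SE, limma adjusted p 0.000278 for each). It was -2.92 ± 0.12 for Il21 and -4.10 ± 0.16 for Il24 (SE, limma adjusted p 8.58e-06 for each). All 4 tested members were thus called in this contrast, beside 2.37% of tested genes called lower. They passed the filter through Tc17 WT alone and were already low in Tc1 WT cells, so their count carries no weight by itself. For Il23r, with all genes in the fit, the genotype difference in Tc17 less that in Tc1 was -1.67 ± 0.21 (SE, limma adjusted p 0.00345). That call was lost with the technical arrays as samples of their own, at -1.54 (limma adjusted p 0.132). Il1r1 (-0.25, limma adjusted p 0.565) and Il22 (-0.15, limma adjusted p 0.822) were not called.

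Between culture conditions, the 4 tested members were higher in Tc17 WT than in Tc1 WT cells, beside 7.01% of tested genes called higher. They passed the filter of 5 through Tc17 WT alone, so this direction was set by the filter and their count carries no weight by itself. The differences were 4.17 ± 0.22 for Il17a, 4.74 ± 0.26 for Il17f, 2.97 ± 0.08 for Il21 and 4.86 ± 0.11 for Il24 (SE, largest limma adjusted p 6.52e-06). With all genes in the fit Il23r was 1.61 ± 0.15 higher (SE, limma adjusted p 0.000149). Il1r1 differed by 0.43 (limma adjusted p 0.0516) and Il22 by 0.08 (limma adjusted p 0.818). These values share the Tc17 WT arrays with the genotype comparison in Tc17 cells.

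Without STAT3, Il24 alone among the tested members was still called higher in Tc17 than in Tc1 cells, beside 1.05% of tested genes called higher. The difference for Il24 was 0.76 ± 0.11 (SE; 95% confidence interval 0.50 to 1.02, limma adjusted p 0.00914), 1.69-fold. All 3 Tc17 STAT3-/- arrays (4.82 to 5.21) lay above all 3 Tc1 STAT3-/- arrays (4.15 to 4.27). The call was lost without Tc17 STAT3-/- replicate 2 (0.62, limma adjusted p 0.105) and without Tc1 STAT3-/- replicate 1 (0.70, limma adjusted p 0.0862). For Il17a the difference was 0.30 (95% confidence interval -0.21 to 0.80), for Il17f 0.34 (-0.25 to 0.93) and for Il21 0.05 (-0.14 to 0.24), with limma adjusted p of 0.735, 0.735 and 0.906. All 3 Tc17 STAT3-/- arrays of Il17a (4.42 to 4.63) and of Il17f (4.80 to 5.24) also lay above all 3 Tc1 STAT3-/- arrays (4.15 to 4.33 for Il17a, 4.54 to 4.61 for Il17f), though neither gene was called. For these genes and Il24, 1 of the 3 arrays of each group was technical. The share of all genes whose arrays separated in this way was not counted. Whether Il24 differed from the other members in the difference between Tc17 STAT3-/- and Tc1 STAT3-/- cells was not tested.

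In order of group level, Il24 was thus highest in Tc17 WT cells, next in Tc17 STAT3-/- cells, and lowest in the Tc1 groups, which did not differ by the test. For Il17a and Il17f the order was Tc17 WT, then Tc17 STAT3-/-, then the Tc1 groups, with no call between neighbours below Tc17 WT. For Il21 and Il23r the 3 groups below Tc17 WT were near background on every array, and their order was not resolved.

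**Figure D2:**
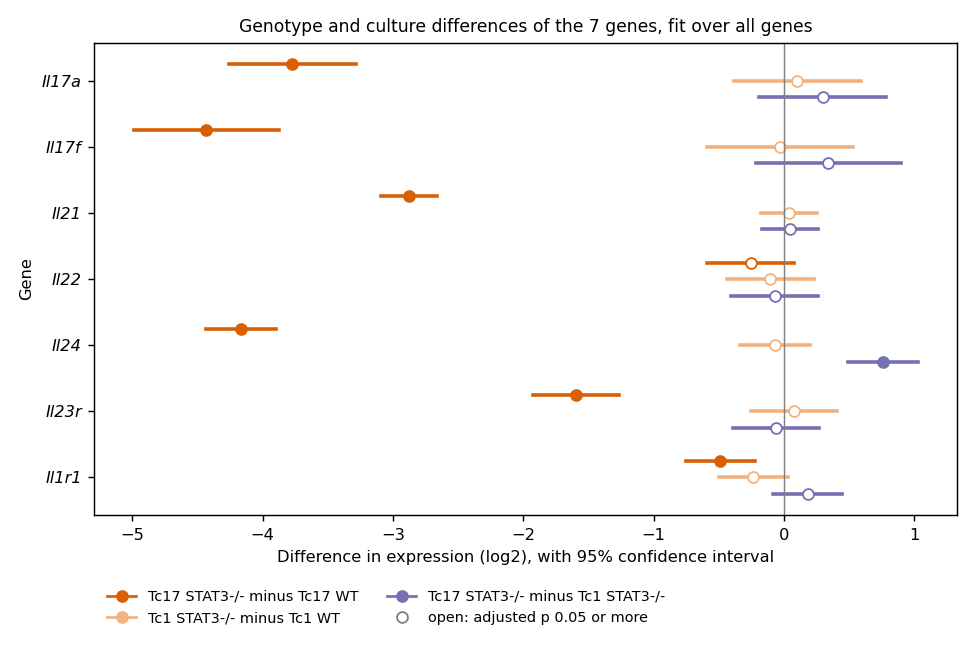
Differences in expression (log2) of the 7 genes with 95% confidence intervals, from the limma fit over all 22180 genes. Orange marks Tc17 STAT3-/- minus Tc17 WT, light orange Tc1 STAT3-/- minus Tc1 WT and purple Tc17 STAT3-/- minus Tc1 STAT3-/-, and open circles are differences with an adjusted p of 0.05 or more. In Tc17 cells 5 genes lie between -1.59 and -4.43 and all 7 Tc1 intervals cross 0, while Il24 alone lies clearly above 0 in the third comparison.

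Other genes of the same pathway were read from lists chosen with earlier results of these data known. Over all tested genes the median Tc17 genotype difference was 0.11, with 18.2% called higher and 6.83% called lower in Tc17 STAT3-/- cells. These shares depended on the scaling. With each array centred on the median of the tested genes, 1080 of 9931 genes were called higher and 1125 lower. Among 7 other IL-17 and IL-10 family cytokines, 2 were tested, Il17d and Il25, and neither was called or had an unadjusted p under 0.05. Il10, a regulatory cytokine that did not pass the filter, had 3.75 to 3.95 on Tc17 STAT3-/- arrays against 4.23 to 5.13 on Tc17 WT arrays. With all genes in the fit its difference was -0.66 (limma adjusted p 0.0428), a call lost without the technical arrays (limma adjusted p 0.0626) and in 7 other fits, with adjusted p up to 0.252. Il19 and Il20, which follow Il24 in the genome, differed by -0.18 and 0.01 and were not called with all genes in the fit (limma adjusted p 0.345 and 0.964).

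Among 6 other cytokines and chemokines that type 17 cells can make, 3 were tested and 2 fell, beside 6.83% of all tested genes called lower. Lif encodes leukaemia inhibitory factor, an IL-6 family cytokine. It had 5.77 to 6.18 on Tc17 STAT3-/- arrays, against 8.82 to 8.94 on Tc17 WT arrays, a difference of -2.86 ± 0.16 (SE, limma adjusted p 8.95e-06). Il3, a haematopoietic growth factor made by activated T cells, had 3.56 to 3.79 on Tc17 STAT3-/- arrays, all near background, against 5.54 to 6.07 on Tc17 WT arrays, a difference of -2.09 ± 0.17 (SE, limma adjusted p 6.59e-05). It passed the filter through the Tc17 WT group alone, so its place among the tested genes was set by the group in which it is high. Lif, like Il24, was also higher in Tc17 STAT3-/- than in Tc1 STAT3-/- cells, by 1.22 ± 0.16 (SE, limma adjusted p 0.00427). Tnf, abundant in every group, differed by 0.01 ± 0.10 in Tc17 cells (SE, limma adjusted p 0.942). Csf2, which encodes GM-CSF, was near background on all 12 arrays, and Ccl20, at 4.43 to 4.92 in Tc17 STAT3-/- and 4.56 to 4.67 in Tc17 WT cells, overlapped between genotypes. Il9, which did not pass the filter, had 2.99 to 3.32 on Tc17 STAT3-/- arrays, all near background. It had 3.92 to 4.95 on Tc17 WT arrays, 2 of them near background. With all genes in the fit 3 of the 6 were called lower, beside 2.66% of all genes.

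Among receptor chains for the cytokines that feed type 17 cells, some were called higher and some lower. Of 14 listed, 12 were measured and 10 tested, with 2 higher, 3 lower and a list median of 0.05. Of all tested genes 18.2% were called higher and 6.83% lower. Il6ra, the ligand-binding chain of the IL-6 receptor, had 5.25 to 5.49 on Tc17 STAT3-/- arrays, against 6.92 to 7.59 on Tc17 WT arrays. It fell by 1.93 on the log2 scale (SE 0.11, limma adjusted p 1.04e-05), and its genotype difference in Tc17 cells less that in Tc1 cells was -1.89 ± 0.16 (SE, limma adjusted p 0.000278). Il12rb1, the partner chain of Il23r, fell, at -0.55 ± 0.12 (SE, limma adjusted p 0.0121), a call lost without Tc17 STAT3-/- replicate 2 (limma adjusted p 0.0984). Il12rb2, the genome neighbour of Il23r and a chain of the IL-12 receptor, differed by -0.16 (limma adjusted p 0.305).

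Il21r, the receptor for IL-21, fell, at -0.44 ± 0.10 (SE, limma adjusted p 0.013), and its adjusted p reached up to 0.0855 without either Tc17 STAT3-/- replicate. Il18rap, a signalling chain of the IL-18 receptor, was 1.01 ± 0.21 higher (SE, limma adjusted p 0.00959), with an adjusted p of 0.0773 without Tc17 STAT3-/- replicate 1. Tgfbr2, a TGF-beta receptor chain, was 0.35 ± 0.08 higher (SE, limma adjusted p 0.018), and that call was lost in 7 of 25 other settings. Il1r2, the decoy receptor for IL-1 and the neighbour of Il1r1, had 2.94 to 3.44 on Tc17 STAT3-/- arrays against 4.42 to 4.53 on Tc17 WT arrays. It did not pass the filter, and with all genes in the fit the difference was -1.19 (limma adjusted p 0.000491). When the technical arrays were left out, 4 chains of the list were called higher and 4 lower, beside 1725 and 880 of 9860 tested genes.

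Of 10 receptor chains for the members' cytokines, 3 were tested and 1 rose, with a list median of 0.03, beside 18.2% of all tested genes called higher. Il10rb, which pairs with the IL-22 receptor and with the IL-10 receptor, was 0.61 ± 0.09 higher in Tc17 STAT3-/- cells (SE, limma adjusted p 0.00186). Il17ra, the shared IL-17 receptor chain, had 7.86 to 8.05 on Tc17 STAT3-/- arrays, against 7.81 to 8.03 on Tc17 WT arrays, and was not called. Among 8 tested genes of signalling below the IL-23 and IL-1 receptors 1 was called higher, beside 18.2% of all tested genes. It was Stat4, which carries IL-12 and IL-23 signals, at 0.60 ± 0.11 (SE, limma adjusted p 0.00611). That call was lost without Tc17 STAT3-/- replicate 2 (limma adjusted p 0.0559). The kinases Jak2 and Tyk2, which bind the IL-23 receptor chains, were not called, and the list median was -0.06.

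Of 9 type 17 regulators and markers, 8 were measured and 7 tested, and 6 fell, with a list median of -0.86, beside 6.83% of all tested genes called lower. Maf, a transcription factor that acts on Il21 and Il10, had 3.75 to 4.29 on Tc17 STAT3-/- arrays, against 6.84 to 7.37 on Tc17 WT arrays, a difference of -3.21 ± 0.15 (SE, limma adjusted p 4.71e-06). Rora, a nuclear receptor that favours the type 17 fate, fell, at -0.96 ± 0.13 (SE, limma adjusted p 0.00141). Hif1a, the hypoxia-inducible factor, fell, at -0.89 ± 0.09 (SE, limma adjusted p 0.000345), a call lost when the probe sets of the gene were averaged (limma adjusted p 0.105). Ahr, a ligand-activated factor needed for Il22 expression in T cells, fell, at -0.86 ± 0.17 (SE, limma adjusted p 0.00654).

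The AP-1 factor Batf fell, at -0.58 ± 0.09, and its partner Irf4 at -0.48 ± 0.08 (SE, limma adjusted p 0.00296 and 0.00428). The calls on Ahr and Irf4 were lost without Tc17 STAT3-/- replicate 1, at adjusted p of 0.0596 and 0.0536. Runx1, at -0.12 ± 0.11, was not called (SE, limma adjusted p 0.421). All 7 tested genes of the list were called higher in Tc17 WT than in Tc1 WT cells, beside 7.01% of all tested genes. Maf passed the filter through the Tc17 WT group alone, which is the high one. In STAT3-/- cells only Ahr was called between Tc17 and Tc1, at 1.33 ± 0.17 higher (SE, limma adjusted p 0.00391). Ccr6, the receptor for CCL20, had 3.35 to 3.43 on Tc17 STAT3-/- arrays against 4.18 to 4.82 on Tc17 WT arrays. It did not pass the filter, and with all genes in the fit the difference was -1.05 (limma adjusted p 0.00207).

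**Figure D3:**
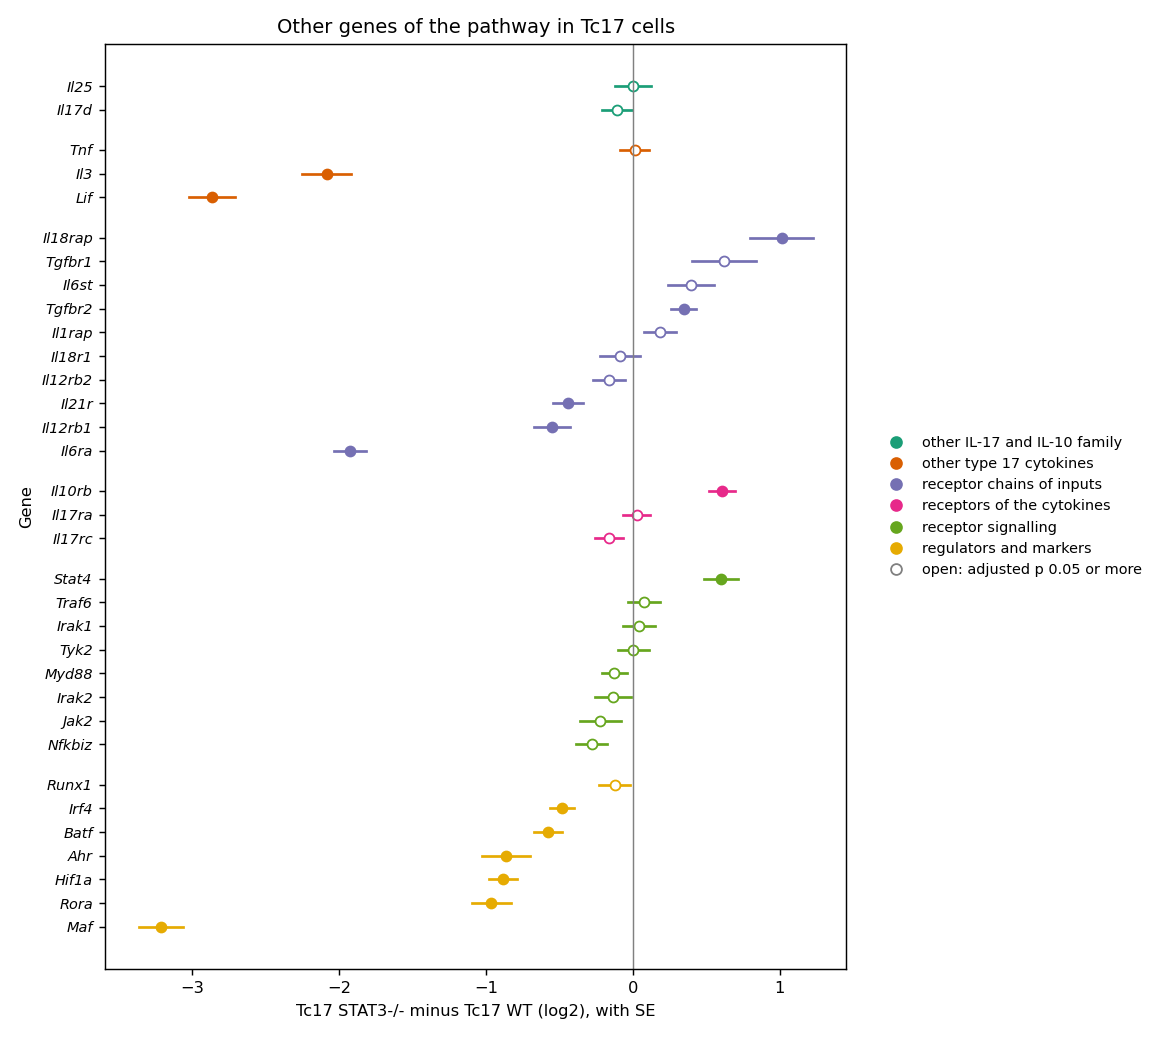
Tc17 STAT3-/- minus Tc17 WT differences (log2) with SE for the tested genes of 6 pathway lists, coloured by list, with open circles for a limma adjusted p of 0.05 or more. The regulators and Lif, Il3 and Il6ra lie left of 0, with Maf at -3.21, and Il18rap lies furthest right at 1.01.

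The genes whose array profiles were most like those of the members were found by the root-mean-square difference between profiles over the 12 arrays, each centred on its own mean, and are ranked here among genes other than the members. Ecm1, which encodes a secreted matrix protein, came closest to Il17a at 0.36, and Il17f itself lay at 0.32. Cysltr1, a receptor for cysteinyl leukotrienes, came closest to Il17f at 0.55 and to Il24 at 0.29. Igfbp4, an insulin-like growth factor binding protein, was the second closest to Il17a, Il17f and Il24. Il21 was nearest to the transporter gene Slc4a11 at 0.23, then to the semaphorin gene Sema4f at 0.30 and to Maf at 0.31. Each profile is high in Tc17 WT cells: Cysltr1 averaged 4.73 in Tc17 STAT3-/- and 8.47 in Tc17 WT cells, and Slc4a11 averaged 4.83 in Tc17 STAT3-/- and 7.82 in Tc17 WT cells.

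Genome neighbours of the members were compared by their order in the RefSeq gene table. Beyond the adjacent genes Il17a and Il17f lies Mcm3, a replication helicase subunit, which was 0.59 higher in Tc17 STAT3-/- cells (limma adjusted p 0.00257). Il2, beside Il21, lay at 1.91 in Tc17 STAT3-/- and 2.02 in Tc17 WT cells in group means and did not pass the filter. Cetn4, on the other side of Il21, fell, at -0.57 (limma adjusted p 0.0095), a call lost without Tc17 STAT3-/- replicate 2 (limma adjusted p 0.085). Fcmr, next to Il24, differed by -0.17 (limma adjusted p 0.172). Mdm1, next to Il22, was 0.49 higher (limma adjusted p 0.00458). The other tested neighbours, Bbs12 near Il21 (0.07), Serbp1 near Il23r (0.09), Il12rb2 near Il23r (-0.16) and Il18r1 near Il1r1 (-0.09), were not called, and the remaining neighbours did not pass the filter.

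Some markers of other cells moved with the genotype in Tc17 cells. The sum of 4 measured B cell markers was 24.5 to 24.7 on Tc17 STAT3-/- arrays, against 22.1 to 22.5 on Tc17 WT arrays. In it Ighm was 1.77 ± 0.10 higher and Cd79b 0.78 ± 0.11 higher (SE, limma adjusted p 8.95e-06 and 0.00183), while Cd79a and Ms4a1 stayed near background on every array. Ighm averaged 10.86 in Tc17 STAT3-/-, 10.51 in Tc1 STAT3-/- and 10.44 in Tc1 WT cells, with Tc17 WT cells the low group at 9.09. Cd79b averaged 7.56 in Tc17 STAT3-/- cells, against 6.78 in Tc17 WT, 6.75 in Tc1 STAT3-/- and 6.71 in Tc1 WT cells. With the probe sets of the gene averaged, the Ighm difference was 0.52 and still called (limma adjusted p 0.00368). The sum of 7 myeloid markers was 25.9 to 26.0 on Tc17 STAT3-/- arrays and 26.6 to 28.6 on Tc17 WT arrays. Cd68 was at -1.12 ± 0.11 (SE, limma adjusted p 0.000243), with Cd14, Lyz2, Itgam, Adgre1 and S100a8 near background on every array. Csf1r went the other way, at a mean of 4.24 in Tc17 STAT3-/- and 4.06 in Tc17 WT cells, with 1 and 3 arrays near background. Kit was 0.88 ± 0.16 higher (SE, limma adjusted p 0.00554), with Ncr1 and Klrb1c near background on every array. Innate-like T cells can also make IL-17. The sum of 3 of their markers was 12.8 to 13.4 on Tc17 STAT3-/- arrays and 13.3 to 14.4 on Tc17 WT arrays, with Blk near background on every array and Sox13 at -0.12 (limma adjusted p 0.524). The part of Ighm, Cd79b, Cd68, Kit and the innate-like markers in the results above was not tested.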

How the data were processed

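The members, the pathway lists and the tests were chosen with earlier results of these data known. Each array contributed 1 deposited log2 value for every probe set. Per the submitters' processing notes, the authors used RMA and Partek; the order of steps, the versions and the genome build were not given in the sources used here. That the unit is log2 was inferred from a maximum of 13.3. RMA can narrow differences near background, so changes of dim genes may be understated, which was not tested here.

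The platform annotation gave 1 gene symbol to 23521 of 41345 probe sets, several to 1814 and, as used here, none to 16010. The probe set with the highest mean was kept for each of 1082 genes with more than 1, giving 22180 genes. Genes with at least 1 group mean of 5 or more were tested, 9862 in all. Group means of 8 samples were fitted in R 4.3.3 with the lmFit, contrasts.fit and eBayes functions of limma 3.58.1, with 4 residual and 4.87 prior degrees of freedom, for 5 contrasts. Calls were made at a two-sided p under 0.05 after Benjamini-Hochberg adjustment over the whole tested table. The 3 members removed by the filter were read from a fit over all 22180 genes. All adjusted p-values in the text are from limma. The fit was tested on simulated data.

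The labels do not say which cultures or animals the replicates came from, nor which sample the technical array repeats, so p-values reflect the spread of these samples only, part of which may be technical. The technical array differed from biological array 2 by an SD of 0.209 to 0.352 over tested genes, against 0.144 to 0.192 between biological arrays. From biological array 1 it differed by an SD of 0.195 to 0.372. In Tc17 STAT3-/- and Tc1 STAT3-/- cells it was no closer to biological array 2 than to biological array 1. With arrays, the 2 samples per group limit the precision. Alternatives varied the use of the technical arrays, the filter, the probe set rule, the scaling, the variance prior, the groups in the fit and the samples left out.

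The genes named were the 7 members, Stat3, up to 6 called genes from each pathway list, the 3 tested genes most like each tested member, and the 2 measured neighbours on each side of a member in the RefSeq table (GRCm38.p6). The genes Il9, Il10, Il1r2, Ccr6, Tnf, Csf2, Ccl20, Runx1, Il17ra and the uncalled family members were named from the lists after their values were seen, as were the named marker genes. Plots were made in Python 3.11.15 with matplotlib 3.10.9.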

Additional observations from a re-analysis of the deposited data

Results flagged for a closer look

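The genotype difference in Tc17 cells and that in Tc1 cells differed by the test of the difference itself for 4 members. The difference between them (log2, Tc17 minus Tc1) was -3.87 ± 0.32 for Il17a, -4.40 ± 0.36 for Il17f, -2.92 ± 0.12 for Il21 and -4.10 ± 0.16 for Il24 (SE, limma adjusted p 0.000278, 0.000278, 8.58e-06 and 8.58e-06). All 3 Tc17 STAT3-/- arrays lay below all 3 Tc17 WT arrays for each of them, while the Tc1 STAT3-/- and Tc1 WT arrays overlapped for each of them. The share of all genes that separated in this way was not counted. These 4 members passed the filter through Tc17 WT alone and were already low in Tc1 WT cells. Both patterns were thereby favoured, and the count of members carries no weight by itself.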

How the results depend on the processing

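Depth is not given for arrays, and signal over background limited Il22, Il1r1 and, outside Tc17 WT cells, Il21 and Il23r. Over up to 25 other settings the Tc17 genotype difference stayed called for Il17a (-4.20 to -3.34), Il17f (-4.91 to -3.94), Il21 (-2.63 at the weakest) and Il24 (-4.31 to -4.02). So did the difference between Tc17 and Tc1 and that between Tc17 WT and Tc1 WT. A filter on the mean over all samples removed Il21, leaving 3 members called, and no filter gave 6 in the Tc17 genotype contrast. No member was called in Tc1 cells under any of these settings. The call on Il24 between Tc17 STAT3-/- and Tc1 STAT3-/- was the only one of its contrast, so the count ranged over 0 to 1 when each sample was left out in turn. The Il23r difference in Tc17 cells was -2.09 without the technical arrays, -2.10 without that of Tc17 WT, and -1.82 to -1.37 when each sample was left out, and it stayed called in each fit over all genes. The Il1r1 difference was -0.24 without the technical arrays or without that of Tc17 WT alone, and -0.61 with arrays centred on the median of the tested genes. The cause of these shifts was not tested. The genotypes were mixed before culture, but the labels do not say whether same-numbered samples share a culture, and the main fit used no pairing. The correlations of their deviations from the group means were 0.0980 to 0.455. The value was 0.0988 between the Tc17 genotypes and 0.455 between the Tc1 genotypes. With the replicate block 3056 genes were called in the Tc17 genotype contrast, against 2473 without it, 4 members stayed called and Il17a stayed at -3.77.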
